A study of Homo sapiens with 36 samples.

Results

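Gene-end regions are accessible regions whose centre lies within 1000 bp of either end, start or stop, of a protein-coding gene. They were drawn from peak lists of ATAC-seq, where a transposase cuts and tags DNA that nucleosomes leave open, in BT549 cells, a line of triple-negative breast cancer. Overlapping peaks on chromosomes 1 to 22 and X were merged within each of 3 experiments, and the regions were compared with the ends of 19970 protein-coding genes on hg38. Of 189959 regions of the inhibitor experiment, 28617 were gene-end regions. The knockdown experiment gave 25317 of 128681 and the GATA6 experiment gave 30270 of 204358. A library is said to hold a region when at least 1 of its peaks overlaps the region by 1 bp or more.

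In the inhibitor experiment, cells spent 4 h in 10 µM BRM014 or in DMSO alone. BRM014 blocks BRG1 (gene SMARCA4) and BRM (gene SMARCA2), the motor subunits of SWI/SNF. The same pair was run with dexamethasone (DEX, 500 nM, 4 h), which activates the glucocorticoid receptor (DEX_BRM014 and DEX_DMSO). Each of these groups has 4 libraries. The knockdown experiment has 4 libraries of cells with siRNA to BRG1 and BRM together (siBRG1_siBRM) and 4 with control siRNA (siCtl_only), for a time that the labels do not state. In the GATA6 experiment, cells with siRNA against the transcription factor GATA6 (siGATA6) or control siRNA (siCtl) for 72 h received DEX at 500 nM for 2 h or vehicle, with 3 libraries in each of the 4 groups. All cells were wild type BT549, and the titles number the libraries of a group as biological replicates. MDA-MB-231 cells, which the series design also names, were not analysed here.

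SWI/SNF complexes use ATP to slide and evict nucleosomes and are best known for keeping enhancers, the regulatory elements far from genes, open for transcription factors. Many gene starts instead lie in CpG islands, stretches rich in the dinucleotide CG that stay free of nucleosomes and bind general factors such as Sp1 at GC boxes and ETS factors. AP-1, a dimer of Fos and Jun proteins, binds many enhancers of mesenchymal cancer cells, and the glucocorticoid receptor binds inverted repeats of a hexamer once its ligand is present.

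A few gene starts serve as examples of lost, gained and kept regions. The 250 bases before the start of 6 genes are given from RefSeq (GRCh38.p14), in lower case, 5′ to 3′ on the strand of the gene, with matches to a motif in capitals. The genes were picked, after their values were seen, among the gene starts named by rank. At MBNL2 (chr13:97141584-97141833, plus strand), SRPX2 (chrX:100643949-100644198, plus strand) and BCAR1 (chr16:75268008-75268257, minus strand) the capitals mark the AP-1 letters TGANTCA, and these starts were lost with BRM014. At ABCA6 (chr17:69141896-69142145, minus strand), whose start was gained with DEX, they mark a CCAAT box (CCAAT or ATTGG). At ZNF169 (chr9:94259048-94259297, plus strand) and ITCH (chr20:34363023-34363272, plus strand), held by all 36 libraries, they mark GC boxes (GGGCGG or CCGCCC).
MBNL2: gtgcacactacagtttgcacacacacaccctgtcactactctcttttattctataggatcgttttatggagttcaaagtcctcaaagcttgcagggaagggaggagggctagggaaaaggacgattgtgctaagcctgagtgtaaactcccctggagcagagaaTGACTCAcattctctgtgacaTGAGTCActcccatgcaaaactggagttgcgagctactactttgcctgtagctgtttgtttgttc
SRPX2: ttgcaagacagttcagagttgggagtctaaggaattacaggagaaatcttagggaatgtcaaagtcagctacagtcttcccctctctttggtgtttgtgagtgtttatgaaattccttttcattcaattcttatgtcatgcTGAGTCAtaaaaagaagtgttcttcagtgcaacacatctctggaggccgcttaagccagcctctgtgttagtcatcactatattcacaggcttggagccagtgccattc
BCAR1: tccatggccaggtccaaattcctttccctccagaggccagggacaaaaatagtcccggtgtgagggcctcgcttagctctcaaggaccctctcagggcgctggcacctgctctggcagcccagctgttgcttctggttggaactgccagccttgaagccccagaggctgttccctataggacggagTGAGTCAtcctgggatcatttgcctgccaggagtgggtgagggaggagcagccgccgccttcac
ABCA6: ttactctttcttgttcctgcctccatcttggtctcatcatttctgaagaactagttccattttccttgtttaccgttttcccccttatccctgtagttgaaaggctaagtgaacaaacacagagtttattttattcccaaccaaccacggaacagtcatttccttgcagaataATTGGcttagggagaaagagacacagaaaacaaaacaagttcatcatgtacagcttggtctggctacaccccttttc
ZNF169: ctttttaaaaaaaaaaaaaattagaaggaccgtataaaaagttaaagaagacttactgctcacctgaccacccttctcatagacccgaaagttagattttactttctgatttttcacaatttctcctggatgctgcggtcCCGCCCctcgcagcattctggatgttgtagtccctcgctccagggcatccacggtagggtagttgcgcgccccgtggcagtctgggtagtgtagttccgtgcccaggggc
ITCH: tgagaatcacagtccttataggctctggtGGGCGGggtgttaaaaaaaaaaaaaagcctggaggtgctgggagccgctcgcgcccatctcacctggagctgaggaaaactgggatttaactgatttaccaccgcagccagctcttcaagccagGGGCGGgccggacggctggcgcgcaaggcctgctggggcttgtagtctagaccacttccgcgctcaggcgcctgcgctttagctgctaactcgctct

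The first AP-1 match of MBNL2 starts 86 bases and the second 65 bases before the gene's start, 14 and 6 bp from the centre of the accessible region. The single match of SRPX2 lies 30 bp and that of BCAR1 6 bp from the centre of its region. The CpG content of the promoters, as the observed count of CG over that expected from the base composition, was 0.229 for MBNL2, 0.136 for SRPX2, 0.217 for BCAR1 and 0.157 for ABCA6. It was 1.00 for ZNF169 and 0.694 for ITCH. The 3 lost starts shown are not typical of the lost promoters, of which 34.1% were CpG-poor and 9.01% held the AP-1 letters. The CCAAT box shown at ABCA6 does not mark gained starts as a class. It stood in 30.4% of the promoters with a start region gained at 2 h, against 36.3% of all promoters. A match is a string of letters and does not show binding.

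At the start of MBNL2, a splicing regulator, the region chr13:97141626-97141905 had no peak in any of the 4 BRM014 libraries, against peaks with the authors' fold (the height of a peak over the background of its own library) of 31.1, 31.6, 28.3 and 29.3 in the DMSO libraries. With siBRG1_siBRM, 2 libraries had a peak there, with folds of 8.15 and 6.69, against folds of 34.5, 35.8, 32.1 and 30.1 in the siCtl_only libraries. No BRM014 or DEX_BRM014 library held this region and every DMSO and DEX_DMSO library did.

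SRPX2, which encodes a secreted sushi-repeat protein, followed the same order at chrX:100643959-100644288. No BRM014 library had a peak, against folds of 22.7, 25.5, 23.3 and 23.7 in DMSO. With DEX, 1 DEX_BRM014 library had a peak with a fold of 5.66, against folds of 28.3 to 33.3 in DEX_DMSO. In the knockdown, 1 siBRG1_siBRM library had a peak with a fold of 6.36, against folds of 24.7 to 31.8 in siCtl_only. The start of BCAR1, an adaptor protein of focal adhesions, at chr16:75267975-75268149 had no peak in any BRM014, DEX_BRM014 or siBRG1_siBRM library. Its folds were 11.6, 13.8, 8.80 and 15.96 in DMSO and 11.5, 15.4, 14.3 and 13.0 in siCtl_only.

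At ZNF169, a zinc finger gene, the BRM014 libraries had folds of 52.9, 55.7, 49.7 and 42.0 and the DMSO libraries 50.2, 52.1, 45.6 and 50.6. At ITCH, a ubiquitin ligase, the folds were 53.9, 57.0, 57.2 and 45.0 in BRM014 and 44.4, 45.1, 48.8 and 53.7 in DMSO. The BRM014 and DMSO groups overlapped at both starts. In the knockdown the folds of ZNF169 were 31.3 to 47.3 in siBRG1_siBRM and 46.6 to 50.5 in siCtl_only. Those of ITCH were 27.8 to 45.9 in siBRG1_siBRM and 39.55 to 50.9 in siCtl_only. These ranges also overlapped, with both limits lower in siBRG1_siBRM. ZNF169 and ITCH, with DBT, NAPB and TMEM67, were the 5 gene-end regions of best mean fold rank held by all 36 libraries.

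**Figure D1:**
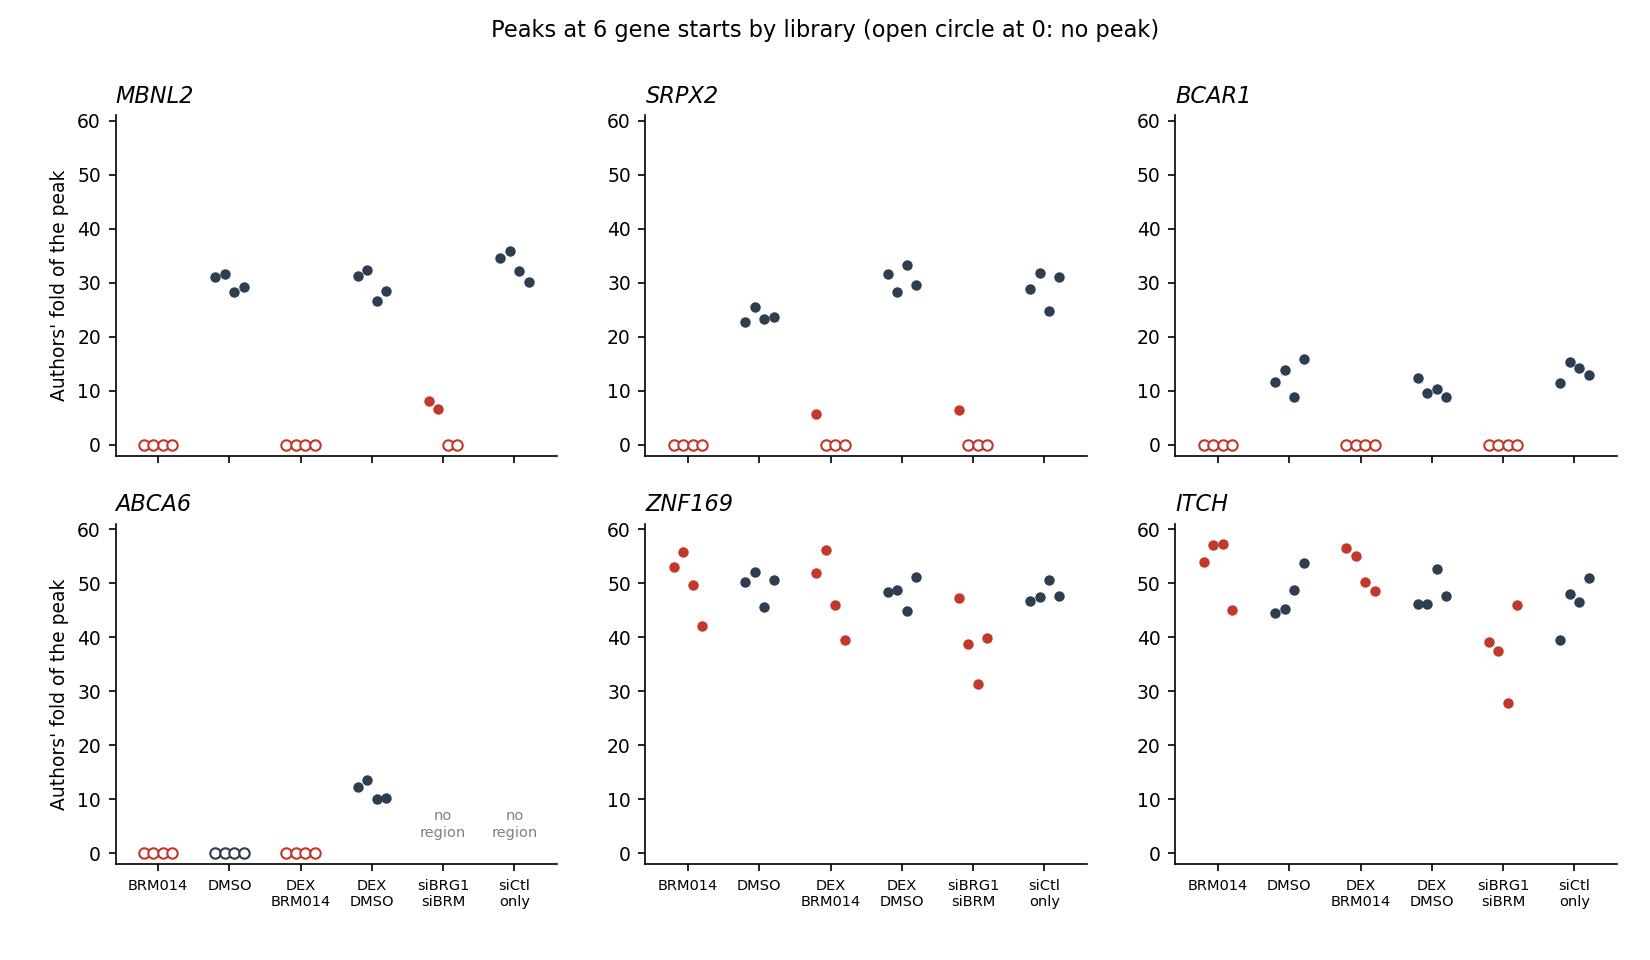
The authors' fold of the peak at 6 gene starts (y axis, linear) in each library of 6 groups (x axis); each filled point is 1 library and an open circle at 0 is a library with no peak. MBNL2, SRPX2 and BCAR1 had no peak in any BRM014 library, the folds of ZNF169 and ITCH overlapped between groups, and ABCA6 had peaks with folds of 10.1 to 13.6 in DEX_DMSO libraries and none in DEX_BRM014, BRM014 or DMSO libraries; its region was absent from the knockdown experiment.

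Gene-end regions were wider and more often shared between libraries than the rest. In the inhibitor experiment their median width was 204 bp, against 134 bp for other regions, and 40.1% of them were held by all 16 libraries, against 10.9% of other regions. All 36 libraries of the 3 experiments held 10714 of the 28617 gene-end regions (37.4%), against 13559 of 161342 other regions (8.40%). By the ends of known kind within 1000 bp, 19088 of the 28617 lay at a gene start only, 3333 at a stop only and 899 near both kinds of end. For 5297 the kind was unknown, because the strand of their genes was not in the table used. Regions at stops were held by all 16 libraries in 16.9% of cases, against 45.2% at starts. In the 4 DMSO libraries the median fold of peaks was 12.7 to 13.4 at starts and 8.10 to 8.42 at stops.

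Depth is not recorded in peak lists, but a background level can be recovered from the authors' fold and p. This level was 0.235 to 0.299 in BRM014 and 0.241 to 0.305 in DMSO libraries, in reads. It was 0.259 to 0.309 in siBRG1_siBRM and 0.242 to 0.335 in siCtl_only, and 0.492 to 0.677 across the GATA6 experiment. The level came from the 3000 weakest peaks of each list. Of these, 13.5 to 63.0% sat close to it in BRM014 and 66.2 to 92.8% in DMSO libraries, so like levels do not show like depth. The BRM014 libraries had 41026 to 60995 peaks, against 88348 to 98220 for DMSO, and the siBRG1_siBRM libraries 37184 to 66607, against 81639 to 87609 for siCtl_only. In bulk chromatin, fewer cells with an open region and less opening per cell cannot be told apart.

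The main comparison asked how much of the accessible chromatin at gene ends depended on the SWI/SNF ATPases. The BRM014 libraries held 52.5, 57.1, 54.3 and 45.2% of the gene-end regions, against 64.8, 69.1, 66.8 and 69.7% in the DMSO libraries. The groups did not overlap, and the share fell by 15.3 percentage points, with 52.3 ± 5.12% in BRM014 and 67.6 ± 2.28% in DMSO (SD, n = 4 each; two-sided exact permutation test, p = 0.0286, adjusted p = 0.0476). A p of 0.0286 is the smallest that 4 libraries against 4 allow, and the adjustment was over 5 comparisons. With DEX present the share was 53.9 ± 2.75% in DEX_BRM014 and 68.4 ± 1.18% in DEX_DMSO, lower by the inhibitor in all 4 libraries (difference −14.4, exact permutation p = 0.0286, adjusted p = 0.0476).

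The double knockdown gave a drop of like size. The siBRG1_siBRM libraries held 65.9, 62.0, 50.8 and 61.5% of the gene-end regions of their experiment, against 75.1, 80.4, 77.1 and 77.3% in siCtl_only libraries. The means were 60.1 ± 6.48% in siBRG1_siBRM and 77.5 ± 2.19% in siCtl_only, without overlap (difference −17.4, exact permutation p = 0.0286, adjusted p = 0.0476). Over both DEX settings, with libraries exchanged only within a setting, the share was 53.1% with and 68.0% without BRM014 (exact permutation p = 0.000408, the smallest that 4900 arrangements allow).

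These falls rest on lists of unequal length. When every library was cut to an equal number of its best peaks, 41026 in the inhibitor experiment, the direction turned, and the BRM014 libraries held a share of gene-end regions 6.77 points above that of DMSO. The DEX_BRM014 libraries then stood 8.77 points above DEX_DMSO, and the siBRG1_siBRM libraries 10.3 points above siCtl_only at 37184 peaks each.

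Other regions lost more. Their share held was 22.1% in BRM014 and 44.1% in DMSO, lower by 49.8% of the DMSO level, while that of gene-end regions was lower by 22.7% of it. In the knockdown the share of other regions was lower by 47.3% of the siCtl_only level, and that of gene-end regions by 22.5%. The make-up of the lists moved with this. Of all regions a library held, 30.9, 28.5, 26.8 and 33.4% were gene-end regions in BRM014, against 21.9, 21.0, 21.6 and 21.0% in DMSO.

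Every BRM014 library was above every DMSO library in that percent, and the means were 29.9 ± 2.87% in BRM014 and 21.4 ± 0.454% in DMSO (difference 8.51, exact permutation p = 0.0286, adjusted p = 0.0476). With DEX the percent was 29.6 ± 2.07% in DEX_BRM014 and 20.6 ± 0.481% in DEX_DMSO (difference 8.96, exact permutation p = 0.0286, adjusted p = 0.0476). In the knockdown it was 32.0 ± 4.43% in siBRG1_siBRM and 23.6 ± 0.976% in siCtl_only (difference 8.44, exact permutation p = 0.0286, adjusted p = 0.0476). Without any 1 of the 4 siCtl_only libraries the adjusted p of the knockdown became 0.0714 (exact permutation).

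**Figure D2:**
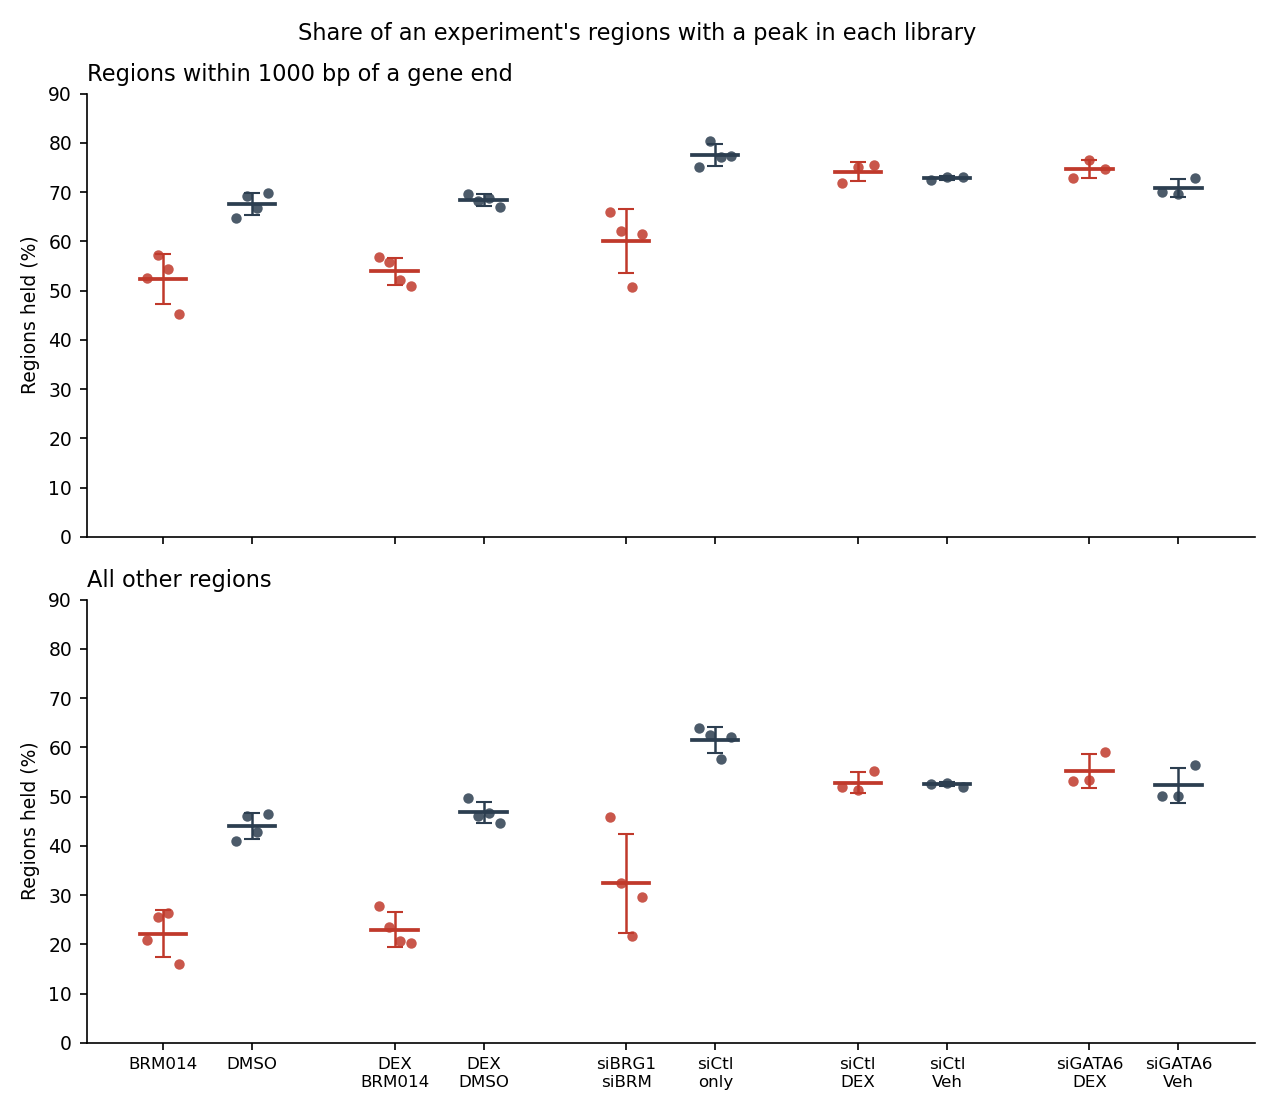
Percent of the gene-end regions (top) and of all other regions (bottom) of an experiment that each library held, by group; points are libraries, the long line is the mean and the bar is ± 1 SD (n = 4, or 3 in the 4 groups at the right). The BRM014 and siBRG1_siBRM libraries lie below their controls in both panels, and the gap is 15.3 points for gene-end and 22.0 points for other regions with BRM014.

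The gene-end regions lost with BRM014, held by all 4 DMSO and by no BRM014 library, numbered 1131. All DMSO libraries held 15981 gene-end regions, so 7.08% of these were lost, against 14799 of 49018 other regions (30.2%). Over all regions held by every DMSO library 24.5% were lost, which is the background of these counts. With DEX, 1151 of 16100 gene-end regions held by every DEX_DMSO library were lost (7.15%), where 26.2% of all such regions were. The knockdown lost 635 of 15952 gene-end regions held by every siCtl_only library (3.98%), where 14.3% of all such regions were lost. Without the first siBRG1_siBRM library, which held the largest share of regions, this count was 1118. With lists cut to an equal number of best peaks, BRM014 lost 206 of 10651 gene-end regions (1.93%), against 19.5% of other regions, and the knockdown lost 57 (0.577%), against 13.4%. A looser rule, at least 3 control libraries and at most 1 treated, gave 3203 lost gene-end regions with BRM014 (17.96%), against 46.1% of other regions. Conversely, 74.3% of the gene-end regions held by all DMSO libraries were also held by all BRM014 libraries, against 40.5% of other regions.

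Gains with the ATPases blocked were few. BRM014 gained 18 gene-end regions, where 0.0321% of all regions were gained, and 11 of them lay at gene stops and 3 at starts. The highest in rank lay past the stop of AMPD3, an AMP deaminase, with folds of 8.60 to 9.75 in the 4 BRM014 libraries and no peak in DMSO. Others lay at the stops of SRM, which makes spermidine, and IRF1, an interferon response factor. None of these 3 was gained by the rule with DEX present. The AMPD3 region was held by 3 of 4 DEX_BRM014 and 1 of 4 DEX_DMSO libraries. The SRM region was held by 4 of 4 and 3 of 4, and the IRF1 region by 0 of 4 in both groups. DEX_BRM014 gained 28 against DEX_DMSO, with a background of 0.0632% of all regions. The knockdown gained 4, at SPRY2, SSBP2, SUN1 and NOC2L, with a background of 0.0272%.

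Loss with BRM014 increased with distance from a gene end. Within 250 bp of an end, 3.64% of the regions held by every DMSO library were lost, and 10.9% were lost between 250 and 500 bp. The values on both sides of the 1000 bp limit were close. Just inside, between 900 and 1000 bp, 78 of 490 were lost (15.9%), and just outside, between 1000 and 1100 bp, 74 of 438 (16.9%). Between 20 and 100 kb the lost share was 32.7%, and beyond 100 kb it was 39.4%. In the knockdown the same bins ran from 1.72% within 250 bp to 25.3% beyond 100 kb, with 10.5% just inside the limit and 7.27% just outside.

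**Figure D3:**
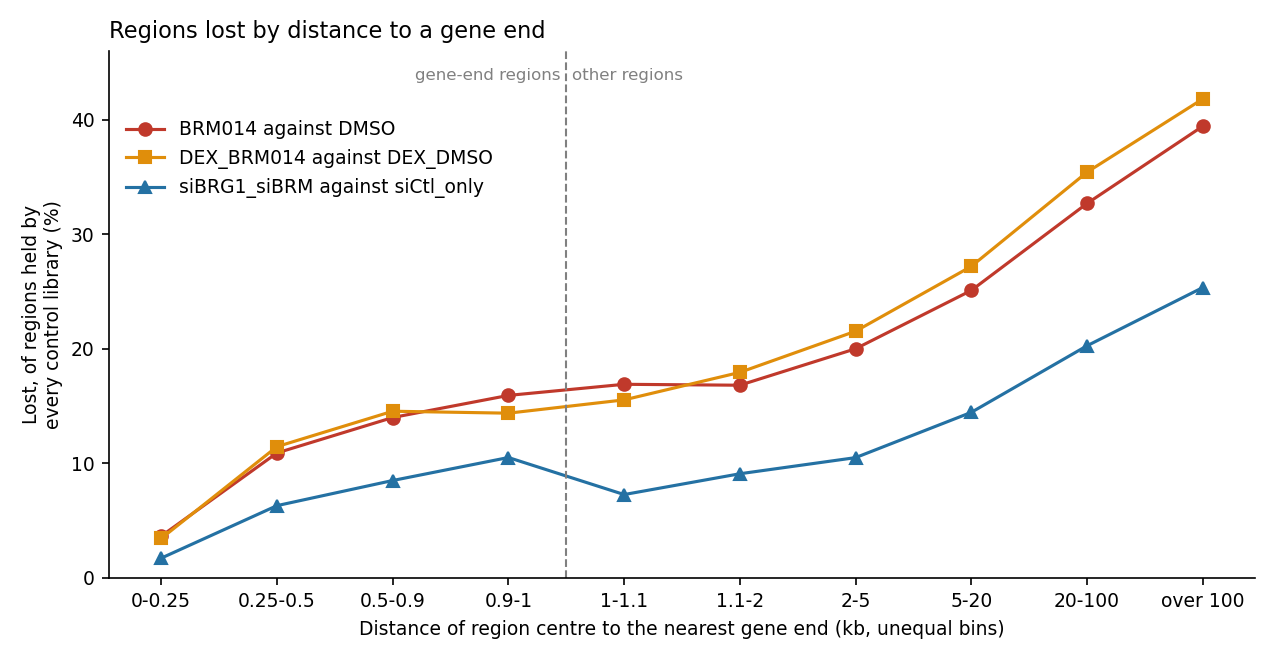
Percent of regions held by every control library that no treated library held (y axis) against the distance of the region's centre to the nearest end of a protein-coding gene (x axis, unequal bins in kb), for 3 comparisons; the dashed line is the 1000 bp limit. With BRM014 the lost share was 3.64% in the bin nearest to gene ends and 39.4% in the farthest.

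The rank of a peak in the control lists also went with loss, and a smaller percent of gene-end than of other regions was lost at every rank. The regions held by every DMSO library were cut into 5 equal parts by their mean fold rank in DMSO. In the lowest part 30.0% of gene-end and 56.1% of other regions were lost, and in the middle part 4.06% of gene-end and 27.3% of other regions. In the highest part 11 of 5247 gene-end regions (0.210%) and 404 of 7753 other regions (5.21%) were lost. In the knockdown the highest part lost 1 of 4708 gene-end regions, the stop of F5, and 78 of 7172 other regions. The median fold rank of gene-end peaks within a list was 63.6 to 64.2% in DMSO, above the middle of the list, and what rank adds to the difference was not tested apart from it.

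**Figure D4:**
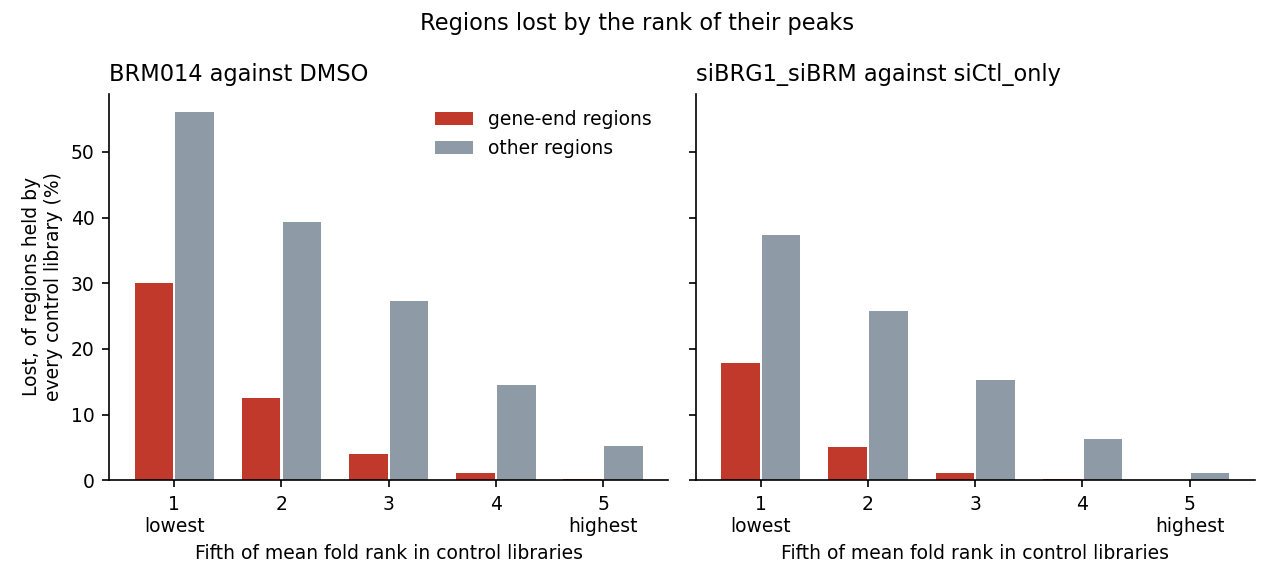
Percent lost (y axis) of gene-end and other regions held by every control library, by part (5 equal parts) of the mean rank of the authors' fold in the control libraries (x axis, lowest to highest), for BRM014 against DMSO (left) and siBRG1_siBRM against siCtl_only (right). In each part the gene-end bar is below the bar of other regions, with 30.0% against 56.1% in the lowest part for BRM014.

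Starts and stops differed in the share lost. With BRM014, 714 of 11629 start regions held by every DMSO library were lost (6.14%), against 153 of 1062 stop regions (14.4%). With DEX the shares were 6.07% at starts and 16.7% at stops, and in the knockdown 3.51% at starts and 9.06% at stops. Stop regions also had a lower mean fold rank in DMSO (60.4%, against 71.1% for starts). With BRM014 the order turned only in the lowest rank part, with 28.6% of stop and 30.3% of start regions lost. In every higher part stops lost more, with 13.95% of stop and 2.92% of start regions lost in the middle part. The lowest part did not turn with DEX (30.4% of stop and 29.4% of start regions) or in the knockdown (18.9% and 17.9%). By the share held, stops fell by 11.1 points, to 32.4% in BRM014 against 43.5% in DMSO, and starts fell by 15.9 points, to 56.6% in BRM014 against 72.5% in DMSO. Relative to the DMSO level the fall was larger at stops, 25.6%, against 21.9% at starts. In the knockdown stops fell by 20.2 points and starts by 16.9 points. Starts were further divided by the CpG content of their promoter, with a ratio of observed over expected CG under 0.6 called poor. Of CpG-poor starts 11.99% were lost with BRM014, against 5.12% of CpG-rich starts, and in the knockdown 4.62% against 3.19%.

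The share held fell by 17.9 points at CpG-poor starts with BRM014, to 41.6% in BRM014 against 59.6% in DMSO. At CpG-rich starts it fell by 15.1 points, to 59.8% in BRM014 against 74.9% in DMSO. The change was 2.84 points more negative at poor than at rich starts, and this difference did not pass the test after adjustment over 3 comparisons (exact permutation p = 0.0286, adjusted p = 0.0857). With DEX the difference was −3.92 points (exact permutation p = 0.0571, adjusted p = 0.0857), and in the knockdown −3.37 points (exact permutation p = 0.143). For BRM014 without and with DEX the difference did pass with equal peaks (−2.87 and −4.60), with a stricter q (only peaks with −log10 q of at least 5; −5.37 and −6.53), and with the limit for a gene end set at 500 bp (−6.13 and −7.42) or 2000 bp (−2.33 and −3.25), and in the knockdown with the stricter q (−6.12).

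The letters of the promoters were then compared between lost and kept starts. A promoter is here the window from 250 bases before to 50 after the start, and 15812 genes had one in RefSeq. Of 211 promoters whose start region was lost with BRM014, 34.1% were CpG-poor, against 6.85% of 8297 promoters whose start region all BRM014 libraries kept. In all 15812 promoters 34.2% were CpG-poor. The AP-1 letters TGANTCA, which are their own reverse complement, stood in 9.01% of the lost, 3.17% of the kept and 5.76% of all promoters. The ETS letters CCGGAAG, on either strand, stood in 5.69% of the lost, 23.4% of the kept and 14.2% of all promoters. GC boxes stood in 64.9% of the lost, 76.0% of the kept and 58.5% of all promoters, also on either strand. Of the 5363 promoters with no region in the inhibitor experiment, 77.9% were CpG-poor. The AP-1 letters stood in 9.19% of them, near the share of the lost promoters, the ETS letters in 3.23% and GC boxes in 27.95%. In the knockdown 12 of 87 lost promoters had the AP-1 letters (13.8%). These shares are descriptions without a test.

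The named regions lost with BRM014 include starts and stops of genes of many kinds. By mean fold rank in DMSO the first was past the stop of CAMK1D, a calmodulin-dependent kinase, at chr10:12835816-12836066, with no peak in BRM014 and folds of 27.5 to 33.9 in DMSO. MBNL2 came second, followed by the stops of the connexin GJA10, of NUP62CL and of CHCHD3, a protein of the inner mitochondrial membrane. The start of SRPX2, an end of the secreted protein gene CCN5 and the stop of AMOTL1, an angiomotin that binds YAP, completed the first 8. In DEX_BRM014 none of the 4 libraries held the regions of CAMK1D, MBNL2, GJA10, NUP62CL, CHCHD3 and AMOTL1, and 1 library each held those of SRPX2 and CCN5. Every DEX_DMSO library held all 8.

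In the knockdown the first was past the stop of F5, coagulation factor V, at chr1:169511750-169511956, with no peak in siBRG1_siBRM and folds of 20.1 to 25.6 in siCtl_only. A neighbouring region of F5, the stops of DPF3, ANKRD16, RAD54L, ABCB9 and TIAM1 and the start of AGXT2 completed the first 8. DPF3 is itself a SWI/SNF subunit, RAD54L acts in homologous recombination and TIAM1 activates Rac. The region past DPF3 had folds of 14.6 to 24.2 in siCtl_only, and in the inhibitor experiment it was lost with BRM014 as well, against folds of 7.96 to 15.6 in DMSO.

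The 1131 regions lost with BRM014 were scored in the knockdown libraries, which had no part in their choice. The siBRG1_siBRM libraries held 45.8, 28.3, 9.73 and 25.0% of them, against 85.6, 91.2, 85.3 and 82.1% in siCtl_only. The means were 27.2 ± 14.8% in siBRG1_siBRM and 86.1 ± 3.75% in siCtl_only (difference −58.8, exact permutation p = 0.0286). The siBRG1_siBRM libraries varied widely and none reached a siCtl_only library. Other regions lost with BRM014 were held by 14.1% in siBRG1_siBRM and 81.4% in siCtl_only. Of 735 lost gene-end regions that all siCtl_only libraries held, 226 (30.7%) had no peak in any siBRG1_siBRM library and 51 (6.94%) had one in all 4.

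Gene-end regions lost in both experiments numbered 219, which is 19.4% of those lost with BRM014 and 34.5% of those lost in the knockdown. Of other regions 4629 were lost in both, 31.3% of those lost with BRM014 and 58.9% of those lost in the knockdown. The first 8 by rank lay at LOC124900866, SMYD4, SLC2A14, PLEKHG4, ANKRD16, BCAR1, DPF3 and OCRL. SLC2A14 is a glucose transporter, PLEKHG4 a guanine nucleotide exchange factor and OCRL an inositol phosphatase. The region at SMYD4 spans more than 1 region of the knockdown experiment, and 1 siBRG1_siBRM library held a part of it. Of the 1131 regions lost with BRM014, 446 (39.4%) were also lost between DEX_BRM014 and DEX_DMSO, which is 38.7% of the 1151 lost there.

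A further check used regions chosen in DMSO alone. Of the gene-end regions that all 4 DMSO libraries held, the DEX_BRM014 libraries held 88.2, 87.5, 84.5 and 83.5%, against 97.9, 97.1, 97.6 and 97.1% in DEX_DMSO. The means were 85.9 ± 2.29% in DEX_BRM014 and 97.4 ± 0.409% in DEX_DMSO, a drop of 11.5 points (exact permutation p = 0.0286). Other regions chosen in the same way were at 56.1% in DEX_BRM014 and 93.2% in DEX_DMSO, a drop of 37.1 points. The drop at gene ends was thus 25.6 points smaller (exact permutation p = 0.0286), in libraries that were not used to choose the regions.

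Gene groups, counted by whether a gene had any lost gene-end region among genes with a region held by every control library, were read against 9.41% of all genes with BRM014 (1197 of 12722) and 5.48% in the knockdown (690 of 12601). Of all genes 87.2% (11099 of 12722) also kept a gene-end region in all BRM014 libraries. Of 76 genes for cytoplasmic ribosomal proteins, 2 had a lost region with BRM014, RPL10 and RPL36, and all 76 also kept a region in all BRM014 libraries. Of 30 proteasome genes 1 had a lost region, PSMD11, and all 30 kept one. Of 34 cell cycle genes 4 had a lost region, at E2F1, MCM6, CCNA2 and MCM4, and all 34 kept one. These lost regions of E2F1, MCM6 and CCNA2 lay inside the gene, 532 to 606 bp from the start. In the knockdown 0 of 76 ribosomal protein genes, 2 of 31 proteasome genes and 1 of 34 cell cycle genes had a lost region.

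Among groups tied to cell identity and signalling, counts were between 0 and 6 genes. Of 25 targets of YAP and TEAD, coactivator and factor of the Hippo pathway, 6 had a lost region with BRM014 (24.0%), and 2 of 25 in the knockdown. With DEX present 3 of 25 did between DEX_BRM014 and DEX_DMSO, where 9.68% of all genes (1235 of 12765) had a lost region. The start of F3, tissue factor, had no peak in BRM014 and folds of 10.9 to 14.7 in DMSO, and a region near the start of PTPN14, a phosphatase that restrains YAP, had folds of 8.08 to 10.6 in DMSO. Of 16 epithelial and keratin genes 3 had a lost region with BRM014, ESRP2, PSCA and KRT80, and 4 of 14 in the knockdown, among them GRHL3 and CLDN3. Of 31 mesenchymal and matrix genes 0 had one with BRM014 and 26 kept a region in all BRM014 libraries. Of 12 AP-1 factor genes 0 lost a region with BRM014, and 0 of 9 in the knockdown. A region was kept in all BRM014 libraries at 9 of the 12 (75%, against 87.2% of all genes). In all siBRG1_siBRM libraries 7 of the 9 kept one (77.8%, against 87.0% of all genes). Of 26 SWI/SNF subunit genes 3 did with BRM014, DPF3, SMARCE1 and ACTL6B.

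The remaining lists had between 0 and 3 such genes with BRM014. With BRM014, 2 of 31 glucocorticoid receptor targets, 1 of 19 NF-kB and cytokine genes, 1 of 5 GATA and endoderm factors and 3 of 21 remodellers outside SWI/SNF had a lost region. Between DEX_BRM014 and DEX_DMSO, 7 of 33 glucocorticoid receptor targets had one (21.2%, against 9.68% of all genes). In the knockdown, without DEX, 0 of 30 such targets had one, against 5.48% of all genes. Of markers of other cells, 2 of 7 leukocyte, 1 of 4 endothelial and 0 of 6 neural genes had a lost region between BRM014 and DMSO. In that comparison 0 of 7 identity markers of breast cancer types had one. A peak at a gene's end does not measure its RNA. The starts of VIM, GAPDH, RPLP0, SMARCA4, SMARCA2, LAMA3, TNC, KLF9, DUSP1 and GATA6 each had a region held by all libraries of all 3 experiments. At SMARCA4 the folds were 9.75 to 22.3 in BRM014 and 15.3 to 16.7 in DMSO.

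DEX gained and lost small percents of gene-end regions. The share of gene-end regions held was 68.4 ± 1.18% in DEX_DMSO and 67.6 ± 2.28% in DMSO (difference 0.760, exact permutation p = 0.6, adjusted p = 0.686), and with BRM014 present it was 53.9 ± 2.75% in DEX_BRM014 and 52.3 ± 5.12% in BRM014 (exact permutation p = 0.686). DEX_DMSO gained 116 gene-end regions over DMSO (0.405% of them), where 1.33% of all regions were gained, and lost 48, where 0.383% of all regions were lost. In BRM014-treated cells DEX lost 7, where 0.0763% of all regions were lost. After 2 h, siCtl_DEX gained 227 over siCtl_Veh (0.750%), where 2.10% of all regions were gained, and lost 99, where 0.681% were. Of the gene-end regions that no control library held, and which could be gained, 2.37% (116 of 4890) were gained at 4 h, against 4.21% of such other regions, and 4.47% (227 of 5076) at 2 h, against 7.25%.

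Among regions that no control library held, 2.91% of stop (38 of 1307) and 2.01% of start regions (49 of 2437) were gained at 4 h, and 5.64% of stop (63 of 1117) and 3.87% of start regions (108 of 2791) at 2 h. The share of stop regions held was 48.9, 47.0, 47.2 and 45.2% in DEX_DMSO, against 41.2, 44.9, 42.8 and 45.2% in DMSO; the lowest DEX_DMSO library stood just above the highest DMSO library. The means were 47.1 ± 1.498% in DEX_DMSO and 43.5 ± 1.88% in DMSO (difference 3.59, exact permutation p = 0.0286, adjusted p = 0.0357), a test added after the data were seen. The call was lost with equal peaks (difference 1.77, exact permutation adjusted p = 0.0857), with the stricter q, with the limit at 2000 bp and without any 1 of the 8 libraries other than the fourth DEX_DMSO library. At starts the difference was 0.291 (exact permutation p = 0.886), and stops were not tested against starts.

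With fewer libraries the counts at 2 h were loose. Leaving out 1 library at a time gave 328 to 441 gained regions for siCtl_DEX. The siGATA6_DEX libraries gained 275 over siGATA6_Veh, where 2.02% of all regions were gained, and 369 to 532 with 1 library left out. They lost 48, where 0.509% of all regions were lost. The share of gene-end regions held was 71.9, 75.03 and 75.4% in siCtl_DEX and 72.4, 73.0 and 73.1% in siCtl_Veh, which overlap. It was 72.8, 76.5 and 74.8% in siGATA6_DEX and 70.02, 69.7 and 72.9% in siGATA6_Veh. With 3 libraries against 3 the smallest p is 0.1, and the tests gave 0.4 for the DEX pair with control siRNA and 0.2 with siGATA6 (exact permutation).

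The gained regions of best rank at 4 h lay at VARS2, NANOGP8, AP3B1, CCDC71L, ARHGEF37, SSRP1, ABCA6 and MMP15. At 2 h, VARS2, NANOGP8, AP3B1, ABCA6, CCDC71L and MMP15 were again among the first 8, joined by COL1A1, the gene of a collagen chain, and ADCY10, an adenylyl cyclase. Near VARS2, a mitochondrial tRNA synthetase, the region chr6:30926715-30927099 had folds of 20.6 to 27.2 in the 4 DEX_DMSO libraries and no peak in DMSO. At the start of ABCA6, a lipid transporter of the ABC family, folds were 12.3, 13.6, 10.1 and 10.2 in DEX_DMSO, with no peak in DMSO. After 2 h they were 17.4, 15.3 and 14.5 in siCtl_DEX and 19.1, 16.7 and 15.1 in siGATA6_DEX, with no peak in either vehicle group. The lost region of best rank at 2 h was at the stop of CDC42EP3, a Cdc42 effector, with no peak in siCtl_DEX and folds of 12.2 to 16.1 in siCtl_Veh.

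Glucocorticoid receptor targets held several of the gains. At 4 h 3 of 40 had a gained gene-end region (7.50%, against 0.641% of all genes), TSC22D3, FKBP5 and PDK4. At 2 h 5 of 40 did (12.5%, against 1.27% of all genes), and with siGATA6 7 of 40 (17.5%, against 1.51%). The region past the stop of TSC22D3, the gene of a leucine zipper protein that dampens inflammation, had folds of 4.80 to 7.63 in DEX_DMSO and no peak in DMSO. A region 516 bp before the start of FKBP5, a co-chaperone of steroid receptors, had folds of 4.14 to 4.89 in DEX_DMSO and no peak in DMSO. At PDK4, a kinase that blocks pyruvate dehydrogenase, a region past the stop had folds of 5.91 to 10.7 in siCtl_DEX and no peak in siCtl_Veh. IGFBP1 and MT1X, a metallothionein, also gained a region at 2 h, with no peak in siCtl_Veh. Targets also had losses at 2 h, 3 of 31 with a region in every siCtl_Veh library (9.68%, against 0.831% of all genes), at SGK1, GADD45B and CEBPB. Without DEX, siGATA6_Veh likewise lost a region at 3 of 31 targets against siCtl_Veh (9.68%, against 0.92% of all genes). In the other DEX pair at 2 h, siGATA6_DEX against siGATA6_Veh, 0 of 32 targets lost one, so these losses were not shared by both DEX pairs. The lost region of SGK1, a kinase induced by glucocorticoids, had folds of 4.85 to 6.98 in siCtl_Veh, and at 4 h 0 of 31 targets lost a region with DEX.

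Whether a gained region was held with the inhibitor differed by region. The gained regions of TSC22D3 and FKBP5 had a peak in 0 of 4 DEX_BRM014 libraries, against 4 of 4 in DEX_DMSO. At ZBTB16, a zinc finger factor induced by glucocorticoids, 0 of 4 DEX_BRM014 libraries held a region beside a gene end, against 4 of 4 in DEX_DMSO with folds of 8.88 to 11.02. The region of ZBTB16 was not gained by the rule, as 1 of 4 DMSO libraries held it, with a fold of 7.87. In the GATA6 experiment 2 of 3 siCtl_Veh and 3 of 3 siGATA6_Veh libraries held a region there. DEX_BRM014 gained 27 gene-end regions over BRM014, where 0.170% of all regions were gained, and 32 to 80 with 1 library left out. Of the 8 gained regions of best rank at 4 h, DEX_BRM014 libraries held 4. Near NANOGP8 and at the stop of SSRP1, a histone chaperone subunit, 3 of the 4 libraries held the region, with folds of 9.32 to 11.7 and 3.74 to 5.56. The region near VARS2 was held by 2, with folds of 3.18 and 6.16, and that of AP3B1 by 1, with a fold of 4.04. Those of CCDC71L, ARHGEF37, ABCA6 and MMP15 were held by 0 of 4.

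The 227 gene-end regions gained at 2 h were scored at 4 h, in libraries that had no part in their choice; this comparison was added after the data were seen. The DEX_DMSO libraries held 43.2, 41.9, 38.3 and 37.4% of them, against 2.64, 6.17, 6.17 and 7.93% in DMSO. The DEX_BRM014 libraries held 11.9, 12.3, 6.17 and 8.81%, and the BRM014 libraries 3.08, 3.08, 3.08 and 0.441%. The means were 40.2 ± 2.75% in DEX_DMSO and 5.73 ± 2.22% in DMSO (difference 34.5, exact permutation p = 0.0286). DEX_BRM014, at 9.80 ± 2.89%, stood 30.4 points below DEX_DMSO (exact permutation p = 0.0286). It stood 7.38 points above BRM014, at 2.42 ± 1.32% (exact permutation p = 0.0286), and that last call was lost when a peak had to cover at least 50% of a region (difference 4.24, exact permutation p = 0.0571). It was also lost without any 1 of the 4 BRM014 libraries and without the second siCtl_Veh library (exact permutation p = 0.0571). Without the first siCtl_DEX library in the choice of regions, the difference between DEX_DMSO and DMSO was 21.1 points and that between DEX_BRM014 and DEX_DMSO −18.5 points. Without the first siCtl_Veh library DEX_BRM014 stood 4.42 points above BRM014. Of 23 promoters with a start region gained at 2 h, 6 held the letters ACANNNTGT (26.1%), which read the same on both strands, against 3.72% of all promoters, and 60.9% were CpG-poor.

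**Figure D5:**
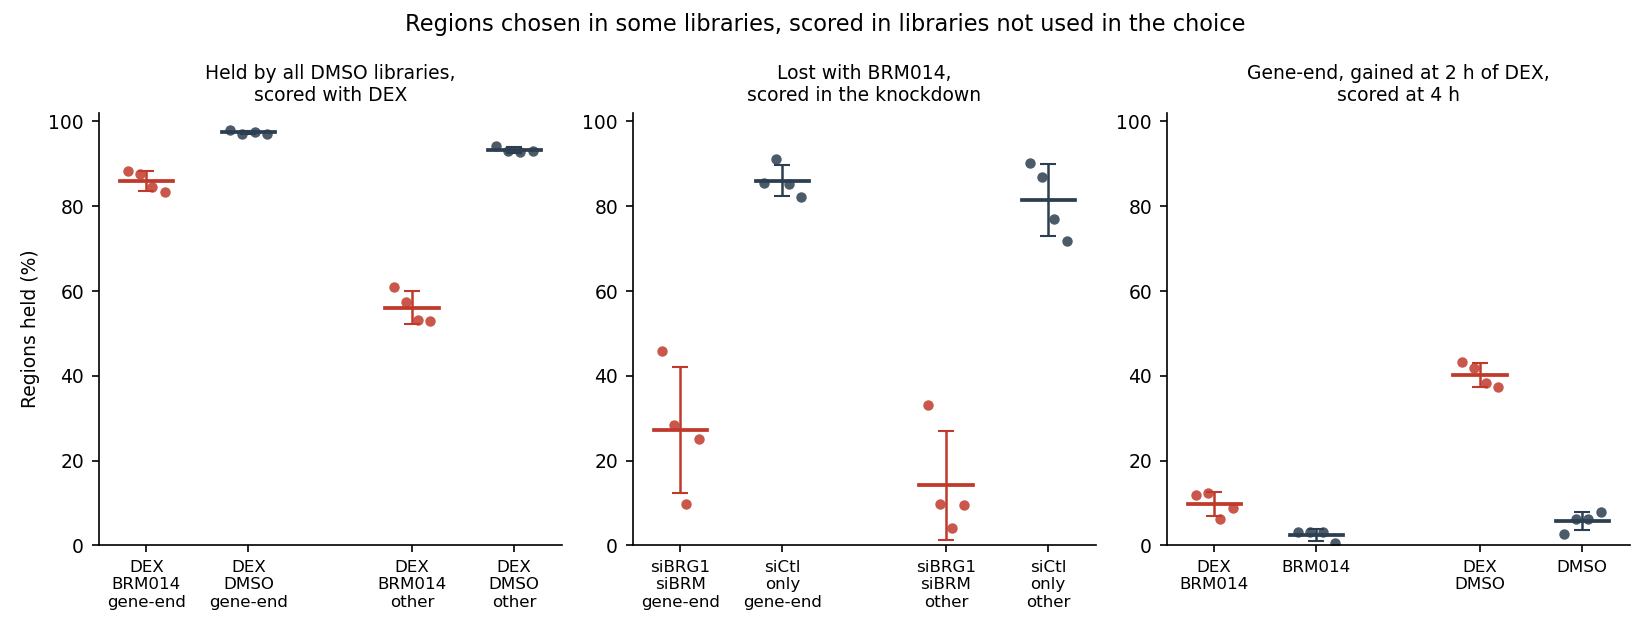
Percent of chosen regions held by each library (y axis) for regions held by all DMSO libraries and scored with DEX (left), regions lost with BRM014 and scored in the knockdown (middle), and gene-end regions gained at 2 h of DEX and scored at 4 h (right); points are libraries, the long line is the mean and the bar ± 1 SD (n = 4). Gene-end regions held by all DMSO libraries stood at 85.9% in DEX_BRM014 and 97.4% in DEX_DMSO, and other such regions at 56.1% and 93.2%.

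Knockdown of GATA6 moved few gene-end regions. The siGATA6_Veh libraries lost 114 against siCtl_Veh, where 0.658% of all regions were lost, and gained 41, where 0.374% were gained. With DEX, siGATA6_DEX lost 81 against siCtl_DEX, where 0.597% were lost, and gained 88, where 0.566% were gained. Leaving out 1 library gave 198 to 291 lost regions with vehicle and 138 to 226 with DEX. Among the lost regions of best rank, one at the start of EGF, an epidermal growth factor, had no peak in siGATA6_Veh or siGATA6_DEX and folds of 5.97 to 14.2 in siCtl_Veh. A region at the stop of SNCAIP had none in either siGATA6 group and folds of 11.4 to 15.4 in siCtl_DEX. The share of gene-end regions held was 70.9 ± 1.78% in siGATA6_Veh and 72.8 ± 0.389% in siCtl_Veh (SD, n = 3 each; exact permutation p = 0.2).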

How the data were processed

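ATAC-seq peak lists of 36 BT549 libraries were used, 1 list per library, in the authors' deposited narrowPeak layout. Column 7 of the deposited lists holds a ratio, the fold of the peak over the background of its own library; it was used to describe and rank peaks within a list. The deposited lists also give −log10 of p and q per peak and a score that follows the −log10 q. MACS2, SAMtools, HOMER and bcl2fastq and the builds GRCh38 and hg38 are named per the submitters' processing notes; the aligner, the handling of duplicates, the shift of reads and the caller's settings are not stated there, and each of these can change which weak peaks are listed.

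Peaks were merged per experiment and regions were assigned to ends of protein-coding genes from RefSeq (GRCh38.p14); the strand, and with it the kind of end, was known for 15812 of 19970 genes. Lost means held by every control library and no treated library, and gained the opposite. Regions were named by the nearest gene end: the first 8 by mean rank of fold for losses and gains, 4 for the siGATA6 comparisons, 5 for regions held by all libraries, and up to 4 genes per list. Group means were compared by two-sided exact permutation of libraries, with Benjamini-Hochberg adjustment over the 5 comparisons of 4 against 4 libraries. The p is the share of arrangements of these libraries whose difference of means, in either direction, is at least as large as that observed. Peak lists hold no read counts, so no interval for counting error was made. Scripts were tested on simulated data. Python 3.11.15, numpy 2.4.6, pandas 2.3.3, scipy 1.17.1 and matplotlib 3.10.9 were used.

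The regions, lists and tests were chosen with earlier results of these data known. Alternatives were a stricter q, equal peak numbers, other distances, overlaps and rules for lost, a CpG limit of 0.4, a replicate block and leaving out each library. In the inhibitor and knockdown experiments the same-numbered libraries of different groups did not deviate together in every pair. In the GATA6 experiment all 18 such pairs had small positive correlations, 0.00592 to 0.0565. Numbers were not used as pairs in the main tests, and the replicate block gives the calls with pairing.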

Additional observations from a re-analysis of the deposited data

Results flagged for a closer look

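Over 7 measures on the same libraries, 34 combinations of a measure and a group of 4 libraries were examined, and 1 held a library far from the others. Of the gene-end regions gained at 2 h of DEX, the fourth BRM014 library held 0.441% at 4 h, while the other 3 BRM014 libraries each held 3.08%. The gap took up the whole range of the group. Chance gives such a gap in about 1 of 20 combinations, so 1 of 34 is no more than chance gives. The fourth BRM014 library also had the smallest list of the group, 41026 peaks, and the part of list length in the gap was not tested.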

How the results depend on the processing

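Lists cut to an equal number of best peaks turned the share of gene-end regions held round: +6.77 points for BRM014 against DMSO, +8.77 for DEX_BRM014 against DEX_DMSO, +7.77 over both DEX settings, +10.3 for the knockdown and −0.317 for DEX_DMSO against DMSO. By construction such a list fills with gene-end peaks when other peaks drop out of it. The gene-end percent of held regions kept its direction and call for these 3 losses of ATPase activity, but turned to 0.714 for DEX_BRM014 against BRM014 and to 0.514 for siGATA6_DEX against siGATA6_Veh. Lost counts became 206 (BRM014), 221 (with DEX) and 57 (knockdown), and DEX_DMSO gained 61. When weak peaks were dropped (−log10 q under 5), the percent turned to −0.166 for siCtl_DEX and 0.0590 for siGATA6_Veh, both against siCtl_Veh; for siGATA6_DEX against siGATA6_Veh it turned to 0.506 when a peak had to cover at least 50% of a region and to 0.0783 within 2000 bp. The share of stop regions held, DEX_DMSO against DMSO, was no longer called at 1.77 with equal peaks, 3.84 with the stricter q and 3.453 within 2000 bp. The shares that turned with equal peaks for BRM014, for DEX_BRM014 against DEX_DMSO, over both DEX settings and in the knockdown had passed in the main setting. The other reversed values concern differences that did not pass a test. The cause of the reversals was not tested. Within 2000 bp the percent for DEX_DMSO against DMSO, −0.789, passed (adjusted p = 0.0357, exact permutation).

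The larger fall of CpG-poor starts passed under other settings: −2.87 and −4.60 with equal peaks, −5.37, −6.53 and −6.12 (knockdown) with the stricter q, −6.13 and −7.42 within 500 bp, and −2.33 and −3.25 within 2000 bp, for BRM014 without and with DEX. With peaks over at least 50% of a region, the gain of DEX_BRM014 over BRM014 in regions gained at 2 h was 4.24 and was no longer called, and DEX_BRM014 gained 48. Within 500 bp, with fewer regions, the counts were 667 lost with BRM014, 667 with DEX and 351 in the knockdown, 62 gained in DEX_DMSO, 14 in DEX_BRM014, 120 in siCtl_DEX and 148 in siGATA6_DEX, and 54 and 42 lost with siGATA6 without and with DEX. Within 2000 bp DEX gained 197, 44, 400 and 445 in the same order, and siGATA6_DEX lost 132 against siCtl_DEX. The looser rule, at least 3 of 4 (2 of 3) control libraries and at most 1 treated, gave 3203, 3143 and 2861 lost, 676, 468, 1628 and 2049 gained, and 1575 and 1207 lost with siGATA6.

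The replicate block, libraries exchanged only within a number, cannot go below p = 0.125 with 4 pairs, so it ended these calls: shares −15.3, −14.4 and −17.4 (adjusted p = 0.208), percents 8.51, 8.96 and 8.44 (adjusted p = 0.156), and 25.6, −58.8, 34.5, −30.4 and 7.38 for the scored regions (p = 0.125, exact), and 3.59 for the share of stop regions held, DEX_DMSO against DMSO (adjusted p = 0.156). With 8 pairs over both DEX settings, the share (−14.9) and the percent (8.73) kept their call (p = 0.00781, exact). The highest correlation of same-numbered libraries was 0.0887; 10 of 12, 6 of 16 and 6 of 8 libraries correlated best with their own number. CpG-poor under 0.4, and the planned overlap by 50% of the region or of the peak, which is the same as 1 bp by construction, changed no call.

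Leaving out 1 library gave these ranges. The share changed by −16.9 to −12.9 (BRM014), −15.4 to −13.5 (with DEX), −15.7 to −13.7 (both), −19.4 to −14.3 (knockdown), −0.179 to 1.47 (DEX_DMSO), −0.730 to 3.27 (DEX_BRM014 against BRM014), 0.626 to 2.38 (siCtl_DEX), 2.91 to 4.86 (siGATA6_DEX), and −2.99 to −1.37 and −0.510 to 1.55 (siGATA6 without and with DEX). The percent changed, in that order, by 7.35 to 9.53, 8.46 to 9.94, 8.15 to 9.24, 6.95 to 10.4, −0.926 to −0.558, −1.36 to 0.820, −0.141 to 0.412, −0.473 to 0.497, −0.535 to 0.0534 and −0.986 to −0.0164. The regions chosen in DMSO gave 24.8 to 26.5, the knockdown scoring −65.0 to −53.0, the CpG classes −3.33 to −2.29, −4.67 to −3.36 and −4.98 to −2.34, and the regions gained at 2 h 21.1 to 35.4, −31.3 to −18.5 and 4.42 to 8.59; the share of stop regions held changed by 2.81 to 4.2. Counts of lost regions were 1161 to 1514 (BRM014), 1250 to 1426 (with DEX), 653 to 1118 (knockdown), 198 to 291 and 138 to 226 (siGATA6); counts gained were 136 to 169 (DEX_DMSO), 32 to 80 (DEX_BRM014), 328 to 441 (siCtl_DEX) and 369 to 532 (siGATA6_DEX). Each left-out library makes the rule for lost easier to meet. Depth limits the lists: a region with no peak may be open below the caller's threshold.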
